A study of Homo sapiens with 12 samples.

Results

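The 41 genes described here carry out glycolysis below the hexokinases, some steps of gluconeogenesis, and the handling of lactate and pyruvate. They were taken by symbol from a list that leaves out hexokinases and glucose transporters, and all 41 were found among the 57820 genes of the count tables. Their RNA was measured in 12 RNA-seq libraries of PLC/PRF/5, an epithelial cell line grown from a human hepatoma. The design text asks what HKDC1 does in liver cancer cells, and HKDC1 is a member of the hexokinase family, whose enzymes phosphorylate glucose at the entry to glycolysis. Members that passed the filter on low counts in the 3-group comparison numbered 39, and the 2 that did not were PGAM2 and FBP1.

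Glycolysis turns glucose 6-phosphate into pyruvate, and its committed step is run by phosphofructokinase, which is switched on by fructose 2,6-bisphosphate. Pyruvate is then reduced to lactate and exported, or enters mitochondria and is oxidised by pyruvate dehydrogenase, which pyruvate dehydrogenase kinases turn off. In liver the route can also run backwards as gluconeogenesis, and many of its steps have a liver form and a form used by other tissues. Liver tumour cells often carry more of the second kind, and several of these genes are well-known targets of the hypoxia-inducible factors.

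Libraries were put into 3 groups of 4 by sample title. KO_RES libraries are HKDC1 knockout cells in which the gene was restored, KO libraries are HKDC1 knockout cells, and control libraries are PLC/PRF/5 cells whose genotype is given as wild type. KO_RES and KO each came from a line called 2 and a line called 1, with a number 2 and a number 1 library per line, so that KO 2_1 is line 2, number 1. KO2 and KO1 stand for the 2 KO libraries of each line. The sources used here do not say how the gene was removed or restored, whether a line is 1 clone, how the controls were handled, or at which oxygen level cells grew. Nothing says that libraries of a line came from separate cultures, so p-values measure the spread between these libraries, which may be technical. Library values below are CPM, read counts scaled to the library total, listed in the order 2_2, 2_1, 1_2 and 1_1 for KO_RES and KO and in the order 1 to 4 for control.

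Total counts were 36075411 to 60154638 in KO_RES, 42609910 to 68040103 in KO and 57333288 to 71853616 in control. HKDC1 was at 626, 507, 1546 and 1237 CPM in KO_RES, at 49.3, 91.2, 147 and 153 CPM in KO and at 157, 154, 183 and 124 CPM in control, so KO1 was not below control, and every library titled KO_RES was above every other library. The genotype field gives a group other than the title in 4 libraries (KO_RES 2_1, KO_RES 1_1, KO 2_2 and KO 1_2), and among KO_RES and KO it follows the number. Of 16 markers of liver cells and hepatoma, all were tested, and the summed level was 5303 to 38847 CPM in KO_RES, 7238 to 32675 in KO and 17550.0 to 35695 in control. In KO against control 6 of the 16 were called, which means an adjusted p under 0.05 in the quasi-likelihood test of edgeR, all lower in KO, against 6.28% of all genes tested. Among them was ALB, which was at 25.2, 20.7, 63.1 and 49.2 CPM in KO_RES, at 20.8, 15.8, 24.9 and 28.0 CPM in KO and at 908, 822, 23.0 and 28.2 CPM in control, so that controls 1 and 2 stood apart from controls 3 and 4. APOB was at 115, 38.8, 27661 and 13638 CPM in KO_RES, 47.8, 20.2, 21595 and 10409 CPM in KO and 6337, 5572, 4806 and 6893 CPM in control, with line 2 far below line 1. Summed markers of fibroblasts stayed at or below 11.8 CPM and of endothelium at or below 2.02 CPM in every library. Of 8 blood cell markers LYZ, which encodes lysozyme, was at 268.5 to 370.3 CPM in KO_RES, 367 to 741 CPM in KO and 333 to 921 CPM in control, and the other 7 together were at most 0.890 CPM in any library. In these bulk libraries fewer cells of a kind and less RNA per cell cannot be told apart.

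In HKDC1 knockout cells PFKP, PFKFB2 and ENO3 rose against control, and PFKL and PKLR fell. These 5 were called out of 39 members tested, against 6.28% of all genes tested. The median log2 fold change of the 39 was 0.01, and that of all genes tested was also 0.01. By role, the called members were 2 of 7 in upper glycolysis, 1 of 4 among the enzymes of fructose 2,6-bisphosphate and 2 of 9 in lower glycolysis. None was called among 6 lactate genes, 8 of pyruvate entry, 3 of gluconeogenesis and 2 glucose phosphate mutases. The libraries of KO and control did not overlap for 7 of the 39, against 16.8% of all genes tested.

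PFKL (ENSG00000141959.12, chromosome 21), the liver form of phosphofructokinase, was at 161, 147, 132 and 139 CPM in KO_RES, at 169, 129, 121 and 108 CPM in KO and at 205, 218, 199.9 and 239.5 CPM in control. All 8 KO_RES and KO libraries lay below the lowest control. PFKL averaged 132 ± 26.2 CPM in KO and 215 ± 17.7 CPM in control (SD, n = 4 each; log2 fold change -0.71 ± 0.13 SE, adjusted p = 0.0116). PFKP (ENSG00000067057.12, chromosome 10), the platelet form that many tumours use, was at 74.6, 58.6, 95.9 and 95.3 CPM in KO_RES, at 123, 71.8, 142 and 149 CPM in KO and at 40.5, 51.8, 41.6 and 63.4 CPM in control. The lowest KO library was above the highest control, and the rise was 2.46-fold (log2 fold change 1.30 ± 0.24 SE, adjusted p = 0.0106). PFKM (ENSG00000152556.11, chromosome 12), the muscle form, was at 89.9, 90.6, 204 and 154 CPM in KO_RES, at 125, 99.0, 295 and 211 CPM in KO and at 141, 146, 112 and 125 CPM in control. Its high libraries were all of line 1, and the mean over both lines did not pass the test (log2 fold change 0.48 ± 0.34 SE, adjusted p = 0.449).

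PFKFB2 (ENSG00000123836.10, chromosome 1), one of 4 members that make and break fructose 2,6-bisphosphate, was at 64.5, 52.5, 81.7 and 69.9 CPM in KO_RES, at 62.5, 59.8, 82.4 and 77.1 CPM in KO and at 43.6, 43.8, 41.3 and 45.4 CPM in control. The controls lay within a narrow range, and all 8 other libraries were above it. PFKFB2 averaged 70.4 ± 11.03 CPM in KO and 43.5 ± 1.67 CPM in control (SD, n = 4 each; log2 fold change 0.69 ± 0.14 SE, adjusted p = 0.017). ENO3 (ENSG00000108515.13, chromosome 17), the enolase form known from muscle, was at 32.9, 26.5, 69.9 and 74.6 CPM in KO_RES, at 33.1, 26.8, 78.7 and 81.8 CPM in KO and at 18.9, 20.4, 14.0 and 15.6 CPM in control. All KO_RES and KO libraries were above the controls, and those of line 1 were the highest. The rise in KO against control was a log2 fold change 1.68 ± 0.42 SE, adjusted p = 0.0373. PKLR (ENSG00000143627.13, chromosome 1), the pyruvate kinase of liver and red cells, was at 7.02, 2.84, 4.70 and 2.89 CPM in KO_RES, at 4.79, 2.40, 3.28 and 1.71 CPM in KO and at 8.98, 9.54, 7.65 and 12.3 CPM in control. Its highest KO library was below the lowest control, at 3.04 ± 1.33 CPM in KO and 9.61 ± 1.95 CPM in control (SD, n = 4 each; log2 fold change -1.66 ± 0.36 SE, adjusted p = 0.0225).

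The main enzymes of the trunk had adjusted p-values of 0.19 or more in KO against control. GPI, which interconverts glucose and fructose 6-phosphate, was at 261, 333, 516 and 471 CPM in KO_RES, at 300.3, 319.9, 472 and 446 CPM in KO and at 377, 344, 384 and 357 CPM in control. ALDOA, the main aldolase, was at 384, 534, 679 and 672 CPM in KO_RES, at 496, 514, 693 and 723 CPM in KO and at 602, 553, 559.6 and 509 CPM in control. For both genes the line 1 libraries lay above every control, and the line 2 libraries of KO lay near or below the low end of the control range. GAPDH, the dehydrogenase at the head of lower glycolysis, was at 2684, 4148, 2989.7 and 3164 CPM in KO_RES, at 3451, 4108, 3152 and 3345 CPM in KO and at 2772, 2666, 3758 and 3310.0 CPM in control. ENO1, the common enolase, was at 1196, 2076, 1604 and 1737 CPM in KO_RES, at 1623, 2106, 1561 and 1742 CPM in KO and at 1218, 1136, 1608 and 1258 CPM in control. PKM, the pyruvate kinase of most tissues and tumours, was at 836, 1571, 1187 and 1267 CPM in KO_RES, at 1558, 1664, 1444 and 1596 CPM in KO and at 1075, 948, 1519 and 1371 CPM in control. The ranges of KO and control overlapped for these 3 genes, with ENO1 0.43 and PKM 0.35 on the log2 scale in KO against control and neither past the test. LDHA, which makes lactate, was at 406, 588, 912 and 866 CPM in KO_RES, at 539, 509, 769 and 806 CPM in KO and at 651, 545, 518 and 498 CPM in control, also with overlapping ranges. MPC1, part of the mitochondrial pyruvate carrier, was at 33.7, 42.0, 69.2 and 56.9 CPM in KO_RES, at 37.9, 42.4, 50.5 and 46.7 CPM in KO and at 45.6, 41.7, 29.9 and 27.7 CPM in control. FBP1, the fructose bisphosphatase of gluconeogenesis, had a total of 12 counts over the 12 libraries and at most 3 counts in 11 of them.

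**Figure D1:**
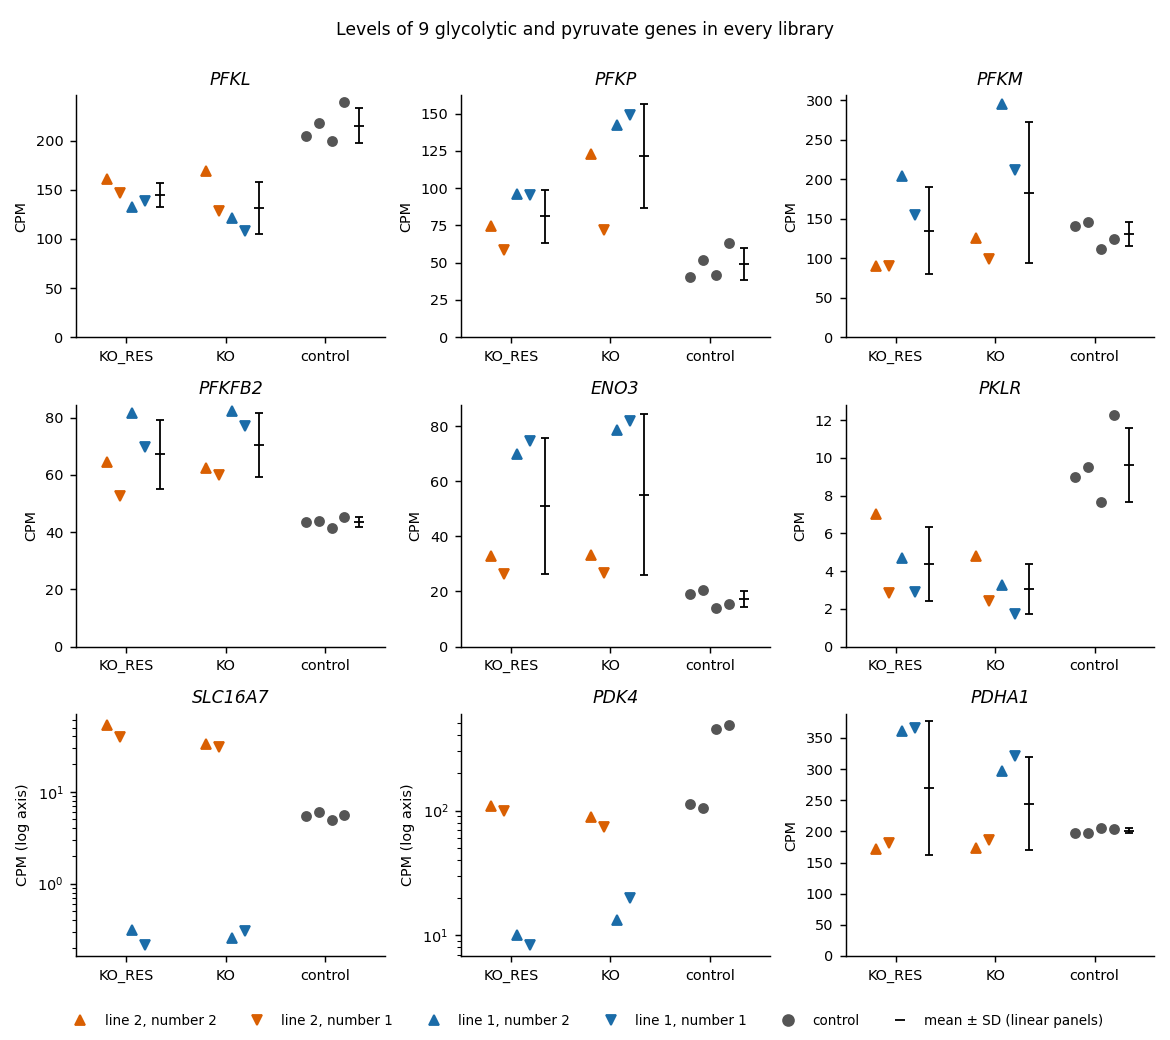
Level in CPM (y axis, log axis for SLC16A7 and PDK4) of 9 members in each library of KO_RES, KO and control (x axis), with lines and numbers marked by colour and shape and the mean ± SD of 4 libraries as bars in the linear panels. PFKL is lower and PFKP, PFKFB2 and ENO3 are higher in every KO library than in every control, and SLC16A7, PDK4, PFKM and PDHA1 separate line 2 from line 1.

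The 5 calls rested on particular libraries. Counts of called members were 2 without control 1, control 2, KO 1_1 or KO 1_2, and 3 without control 4, with 2.6% to 4.12% of all genes called in those fits. Without controls 1 and 2 none of the 39 was called by edgeR (1.67% of all genes were), with log2 fold changes of the 5 still in the same direction, and without controls 3 and 4 the called members were 4, namely PFKL, PFKP, PDK1 and ENO2, of which 2 were among the 5 (7.32% of all genes). With the number 2 libraries of KO and KO_RES and all controls 1 was called (0.348% of all genes), and with the number 1 libraries 2 were (0.914%; both choices made after seeing the data). KO_RES against control called 2 of 39 members, against 5.47% of all genes tested: PFKL fell (log2 fold change -0.57 ± 0.13 SE, adjusted p = 0.0303) and PFKFB2 rose (log2 fold change 0.63 ± 0.14 SE, adjusted p = 0.0273). Both of these calls were lost without control 1, 2 or 4 and without KO_RES 1_2 or 1_1 (2.39% to 4.15% of all genes called). Without control 3, 1 was called (4.39%). Without KO_RES 2_2 (5.87%) or without KO_RES 2_1 (4.26%), 4 were called. Both comparisons use the same controls. The 6 called liver cell markers also fell in KO, and their part in these differences was not tested.

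The ratio of 2 isozymes within a library does not depend on their lengths when libraries are compared. The log2 ratio of PFKP over PFKL was -1.33 to -0.47 in KO_RES, -0.85 to 0.47 in KO and -2.34 to -1.92 in control. No library of KO_RES or KO reached down to the controls. PKLR over PKM was -9.11 to -6.90 in KO_RES, -9.87 to -8.35 in KO and -7.63 to -6.64 in control, so KO lay below control and KO_RES overlapped both. LDHB over LDHA was 0.38, 0.58, -1.07 and -0.77 in KO_RES, 0.56, 0.89, -0.51 and -0.41 in KO and 0.32 to 0.88 in control. Line 1 had negative values in all 4 libraries, and line 2 lay within or near the control range. These ratios are descriptions with no test.

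**Figure D2:**
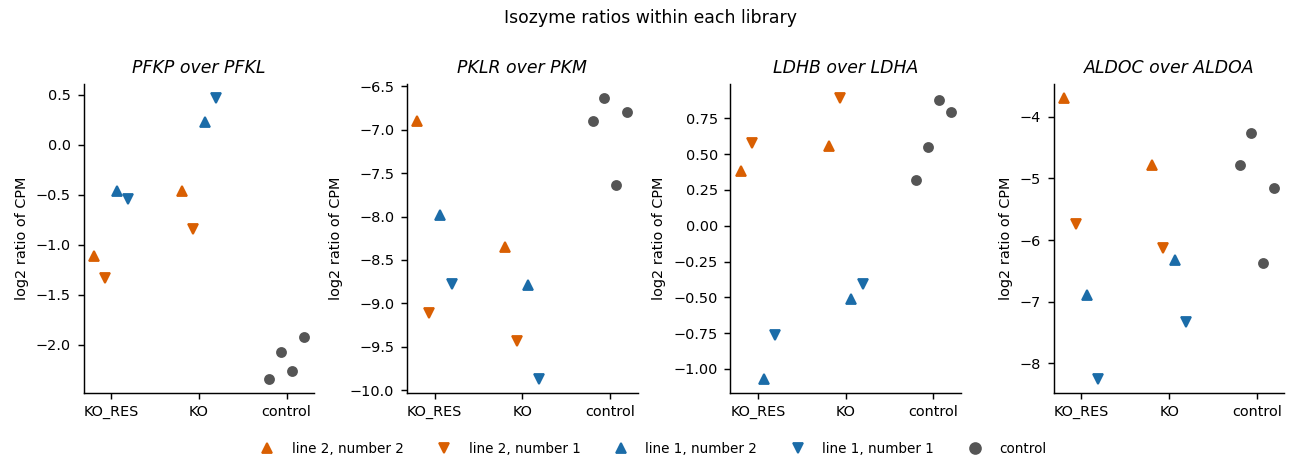
Log2 ratio of the CPM of 2 isozymes within each library (y axis) for KO_RES, KO and control (x axis), 1 point per library. All PFKP over PFKL points of KO_RES and KO lie above the controls, and LDHB over LDHA is below 0 in the 4 line 1 libraries.

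The lines were next compared with control and with each other. KO2 against control called 6 of 40 members (4 rose, 2 fell; 10% of all genes tested), and KO1 against control called 12 of 40 (6 rose, 6 fell; 18.1%). In both lines PFKL fell, PFKP, PFKFB2 and ENO3 rose, and SLC16A7 was called in opposite directions. Both lines were compared with the same controls. Without controls 1 and 2, KO2 against control again called 6 members (10.6% of all genes). ENO3 and SLC16A7 kept their call there, and PFKL, PFKP and PFKFB2 lost it, while KO1 against control kept all of these calls. KO2 against KO1, the direct test, called 7 of 40 members, 2 higher and 5 lower in KO2, against 12% of all genes tested. With number as a replicate block over the 8 KO_RES and KO libraries, a choice added after seeing the data, 23 of 39 members were called for the same comparison and 29% of all genes were. The 8 libraries of line 2 and line 1 did not overlap for 15 of the 39 members, 3 higher and 12 lower in line 2, against 32.5% of all genes tested.

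SLC16A7 (ENSG00000118596.7, chromosome 12), which encodes MCT2, a carrier of pyruvate and lactate with high affinity, had the largest difference between lines of the 40 members tested. It was at 53.1, 39.6, 0.311 and 0.215 CPM in KO_RES, at 32.9, 30.6, 0.258 and 0.303 CPM in KO and at 5.50, 6.03, 4.97 and 5.58 CPM in control. Line 2 lay above and line 1 below every control, in KO_RES as in KO. The log2 fold change was 2.52, adjusted p = 1.17e-05 in KO2 against control, -4.28, adjusted p = 3.17e-06 in KO1 against control and 6.80, adjusted p = 3.81e-07 in KO2 against KO1. The line 1 libraries held at least 11 counts of it each, above the floor of 3 counts. The 3-group comparison, which averages the lines, gave a log2 fold change of 1.54, adjusted p = 0.619 in KO against control. The direction of that mean turned with the fit: the average of both lines in the 5-group model was -0.88, adjusted p = 0.00303.

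By role, KO2 against KO1 called 2 of 7 members of upper glycolysis, 3 of 10 of lower glycolysis and 1 of 6 of lactate. PFKM, whose library values stand above, was lower in KO2 (log2 fold change -1.17 ± 0.21 SE, adjusted p = 0.00488), and so was GPI (-0.56, adjusted p = 0.0285). BPGM, which makes 2,3-bisphosphoglycerate, was at 18.4, 16.3, 34.9 and 31.3 CPM in KO_RES, at 18.3, 17.2, 35.8 and 30.0 CPM in KO and at 26.9, 27.7, 24.8 and 25.2 CPM in control. All line 2 libraries were below all controls and all line 1 libraries above them, and BPGM was called in KO2 against control (-0.56, adjusted p = 0.0143) and in KO2 against KO1 (-0.89, adjusted p = 0.00215). ENO3 was also lower in KO2 than in KO1 (log2 fold change -1.42 ± 0.19 SE, adjusted p = 0.00115). PGK1, which makes the first ATP of glycolysis, went the other way and was at 1054, 1474, 959 and 826 CPM in KO_RES, at 1460.2, 1454, 817 and 814 CPM in KO and at 1163, 1116, 825 and 779 CPM in control. Except for KO_RES 2_2, the line 2 libraries were above every other library, and KO2 was higher than KO1 (log2 fold change 0.84 ± 0.23 SE, adjusted p = 0.0402).

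Of 8 members for the entry of pyruvate into mitochondria, PDHA1 was the 1 called in KO2 against KO1, against 12% of all genes tested. PDHA1, the catalytic alpha subunit of pyruvate dehydrogenase, was at 171, 182, 360.3 and 365 CPM in KO_RES, at 174, 187, 297 and 320.3 CPM in KO and at 197, 197, 205 and 203 CPM in control. Line 2 lay below the 4 controls and line 1 above them. PDHA1 rose in KO1 against control (0.62, adjusted p = 0.0015) and was lower in KO2 than in KO1 (-0.77, adjusted p = 0.0015). PDHB, the beta subunit, was at 63.5, 78.9, 103 and 114 CPM in KO_RES, at 75.1, 80.3, 96.0 and 113 CPM in KO and at 70.3, 66.1, 79.4 and 79.2 CPM in control and rose in KO1 against control (0.50, adjusted p = 0.0223). PDK4, the kinase that turns pyruvate dehydrogenase off in fasting, was at 108, 99.6, 9.99 and 8.36 CPM in KO_RES, at 88.2, 73.9, 13.3 and 19.9 CPM in KO and at 112, 104, 454 and 484 CPM in control. The line 1 libraries were the 4 lowest, and controls 3 and 4 were far above controls 1 and 2. PDK4 fell in KO1 against control (-4.12, adjusted p = 0.00331), with a log2 fold change between -4.81 and -2.72 over the alternatives. In KO2 against KO1 it was 2.29, adjusted p = 0.0562, and with number as a replicate block 2.27, adjusted p = 2.62e-06. PDK1 was at 30.7, 25.1, 30.8 and 22.3 CPM in KO_RES, at 27.9, 19.5, 23.9 and 18.9 CPM in KO and at 40.2, 39.3, 27.9 and 31.2 CPM in control, and it was called as lower in KO1 against control (-0.70, adjusted p = 0.0489), a call lost in 11 of 18 alternatives.

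PGM2, a sugar phosphate mutase, was at 41.7, 68.1, 43.3 and 50.2 CPM in KO_RES, at 62.1, 71.5, 43.6 and 51.7 CPM in KO and at 77.6, 74.2, 85.4 and 70.9 CPM in control. Every KO_RES library was below every control, and PGM2 fell in KO1 against control (-0.69, adjusted p = 0.0284). PFKM rose in KO1 against control (0.95, adjusted p = 0.00397), and PKLR fell (-1.96, adjusted p = 0.015). Counts of called members in KO2 against control were 3 without KO 2_1 (2.44% of all genes) and 2 without KO 2_2 (3.17%). With all libraries 6 were called (10%). In KO2 against KO1, 4 were called without KO 2_1 (5.26% of all genes) or KO 1_2 (4.77%). There, 12 were called without KO_RES 2_2 (13.1%) or KO_RES 2_1 (12.7%), against 7 with all libraries (12%). Of the 16 markers of liver cells 2 were called in KO2 against KO1, against 12% of all genes tested: APOB was lower (-8.88) and HNF4A, a liver transcription factor, higher (0.53). Of all 16, 6 had a positive and 10 a negative log2 fold change, and their part in the line differences was not tested.

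**Figure D3:**
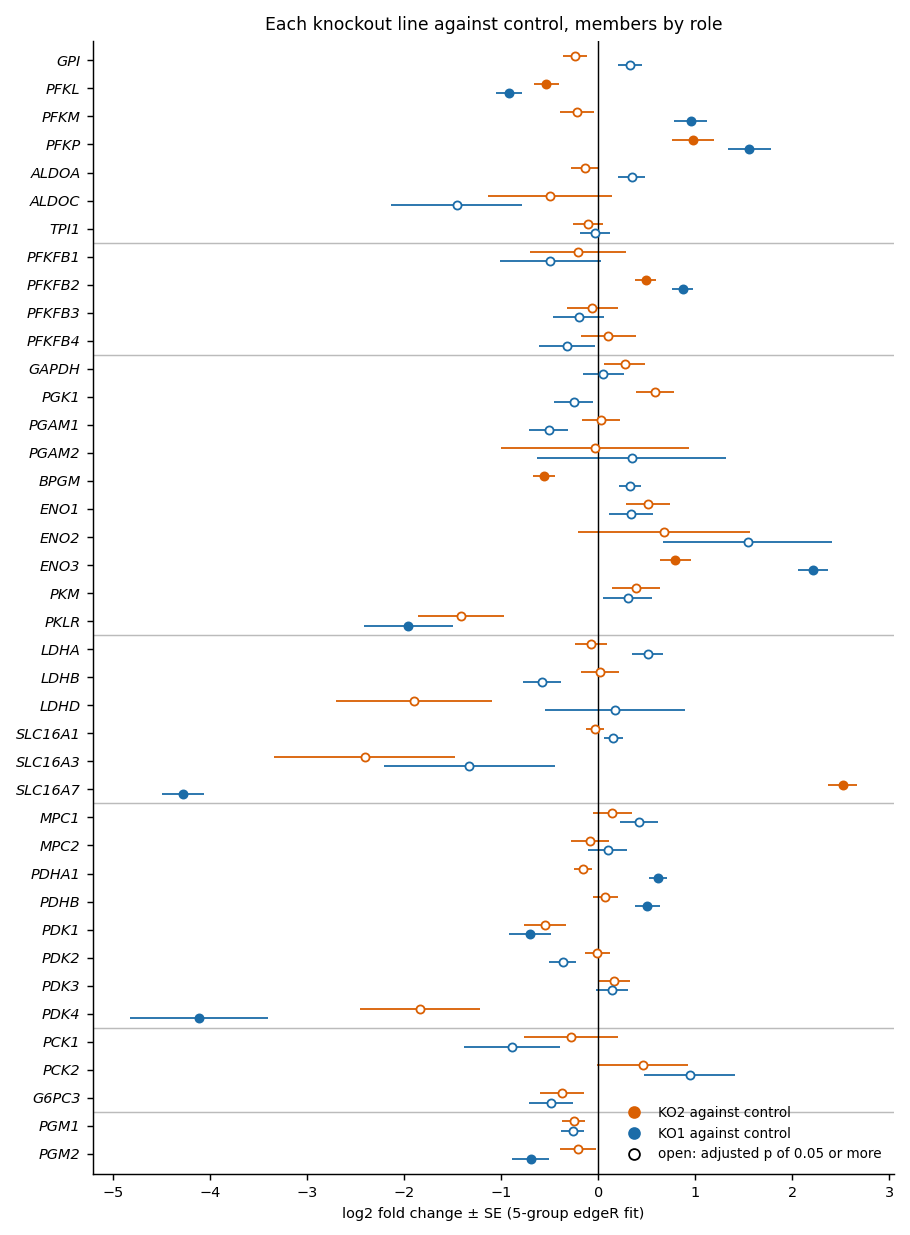
Log2 fold change ± SE (x axis) of 40 members in KO2 and in KO1 against control, grouped by role down the page from upper glycolysis to the glucose phosphate mutases, with filled points for an adjusted p under 0.05. SLC16A7 is at 2.52 in KO2 and -4.28 in KO1, and PFKL, PFKP, PFKFB2 and ENO3 are filled on the same side in both lines.

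Restoring HKDC1 was examined over both lines and within each. In KO_RES against KO none of 39 members was called by edgeR, where the share over all genes was 0% as well. There, 2 members had an unadjusted p under 0.05 (PFKP and PDK3), against 2.46% of all genes tested. DESeq2 called none without a block (0.0312% of all genes). The numbers pair the KO_RES and KO libraries of a line, and with that replicate block edgeR again called none (0.0405%), while DESeq2 called PFKP (-0.55, adjusted p = 5.52e-05) and PFKM (-0.40, adjusted p = 0.00724) as lower in KO_RES, against 2.66% of all genes. A miss of the threshold does not show that the groups were alike.

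Within the 4 pairs of the same line and number, 4 members were higher and 6 lower in KO_RES in every pair, together 10 of 39, against 24.2% of all genes tested. The log2 ratios of PFKP, KO_RES over KO, were -0.72, -0.29, -0.57 and -0.65 for 2_2, 2_1, 1_2 and 1_1. Those of PFKM were -0.48, -0.13, -0.53 and -0.46. Those of PFKL were -0.07, 0.19, 0.13 and 0.37. PFKP and PFKM were thus lower in KO_RES in each pair, PFKL was higher in 3 of 4, and PFKP in KO_RES lay between KO and control on average (81.1 ± 18.0 CPM in KO_RES, 121 ± 34.9 in KO and 49.3 ± 10.7 in control, SD, n = 4 each). The other 4 lower members were PKM, LDHB, PGM2 and ENO3, with log2 ratios of -0.90 to -0.01. The 4 higher ones were PKLR, at 0.55, 0.24, 0.52 and 0.76, and PDK1, PDK3 and LDHD.

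By line, KO2_RES against KO2 called none of 40 members (0.00486% of all genes tested), and KO1_RES against KO1 called none of 40 (0.195%). DESeq2 also called none in either line or for the difference of the rescue effect. Unadjusted p-values under 0.05 by edgeR numbered 1 of 40 (SLC16A7) in line 2, against 1.45% of all genes tested. They numbered 3 of 40 (PFKM, PFKP and PDK3) in line 1, against 6.5%. The difference of the rescue effect between lines called none (0% of all genes tested), with none at an unadjusted p under 0.05 (2.91% of all genes). With number as a replicate block over the 8 libraries, a choice added after seeing the data, KO1_RES against KO1 called SLC16A3 (-1.69, adjusted p = 0.00796), PDK4 (-0.86, adjusted p = 0.0252) and ALDOC (-0.80, adjusted p = 0.0313) as lower and PDK3 (0.48, adjusted p = 0.0410) as higher, against 3.31% of all genes. In that fit the difference of the rescue effect, line 2 minus line 1, was called for SLC16A3 (2.14, adjusted p = 0.0477) and ALDOC (1.38, adjusted p = 0.0302), against 0.496% of all genes. Ratios within the pairs restate this split from the same 8 libraries and are no separate evidence. SLC16A3 log2 ratios were 0.41, 0.55, -1.64 and -1.79 for 2_2, 2_1, 1_2 and 1_1, and those of ALDOC were 0.71, 0.43, -0.60 and -1.03.

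**Figure D4:**
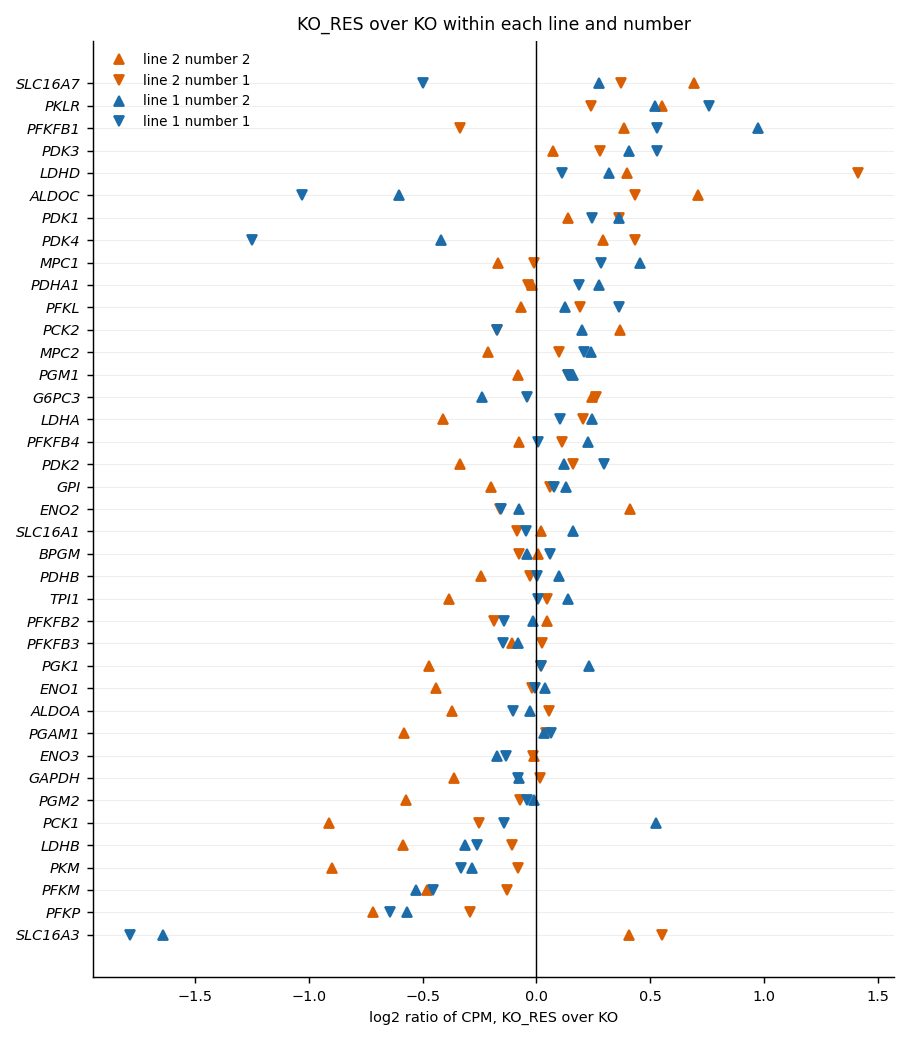
Log2 ratio of CPM, KO_RES over KO, within each of 4 pairs of the same line and number (x axis) for the 39 members tested, ordered by the fitted log2 fold change. PFKP and PFKM are below 0 and PKLR, PDK1, PDK3 and LDHD above 0 in all 4 pairs, while SLC16A3 and ALDOC are above 0 in line 2 and below 0 in line 1.

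The number in the title was compared next. Across KO_RES and KO, number 2 against number 1 called 14 of 39 members, 10 higher and 4 lower in number 2, against 20% of all genes tested. In all 4 pairs of the same line and group, 13 members were higher and 10 lower in number 2, against 43.1% of all genes with 1 direction in all pairs. The labels do not say what the number stands for beyond its match with the genotype field, and a culture and a preparation cannot be told apart from it. HKDC1 RNA, whose library values stand above, separated the title groups, with no overlap of libraries. Its log2 fold change was 3.15 in KO_RES against KO (adjusted p = 0.156 by edgeR, not called). In number 2 against number 1 it was -0.09 (adjusted p = 0.744). For this comparison libraries are listed as KO_RES line 2, KO_RES line 1, KO line 2 and KO line 1.

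ALDOC and ENO2, which rose with number 2, have promoters that hold the core letters bound by hypoxia-inducible factors, and so do a pair of members, LDHA and PGK1, that did not pass the test by number. These 4 are shown because they hold the letters, and the same stretch of SLC16A7, not printed, holds none. Over longer promoters of 300 bases at every start listed, 21 of the 37 members with an entry hold them. The share of all genes counted in that way is not given here. Printed are the 250 bases before the outermost RefSeq start of each gene (GRCh38.p14), 5′ to 3′ on the gene's strand. The letters ACGTG or their complement CACGT are in capitals. Positions are chr17:28576896-28577145, minus strand for ALDOC, chr12:6914330-6914579, plus strand for ENO2, chr11:18394313-18394562, plus strand for LDHA and chrX:78103998-78104247, plus strand for PGK1.
ALDOC: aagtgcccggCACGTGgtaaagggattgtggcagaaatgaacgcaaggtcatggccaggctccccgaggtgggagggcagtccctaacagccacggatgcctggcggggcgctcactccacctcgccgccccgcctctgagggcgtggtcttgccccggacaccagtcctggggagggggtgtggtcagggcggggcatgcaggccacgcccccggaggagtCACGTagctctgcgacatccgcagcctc
ENO2: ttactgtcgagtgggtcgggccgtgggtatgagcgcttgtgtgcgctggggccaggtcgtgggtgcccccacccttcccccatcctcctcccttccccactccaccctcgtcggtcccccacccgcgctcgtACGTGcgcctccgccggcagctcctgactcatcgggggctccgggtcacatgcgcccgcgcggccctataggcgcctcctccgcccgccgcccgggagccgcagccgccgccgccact
LDHA: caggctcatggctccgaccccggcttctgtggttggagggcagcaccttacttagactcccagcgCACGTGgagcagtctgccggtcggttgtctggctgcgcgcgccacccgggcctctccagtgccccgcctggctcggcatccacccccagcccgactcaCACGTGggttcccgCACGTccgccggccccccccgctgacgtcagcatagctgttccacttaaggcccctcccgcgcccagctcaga
PGK1: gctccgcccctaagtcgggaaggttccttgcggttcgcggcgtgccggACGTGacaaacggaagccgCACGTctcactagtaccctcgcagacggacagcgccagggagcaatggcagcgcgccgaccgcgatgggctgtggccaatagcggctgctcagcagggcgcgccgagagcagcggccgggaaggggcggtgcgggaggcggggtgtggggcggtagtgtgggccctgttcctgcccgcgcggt

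ALDOC holds the letters in 2 blocks, ENO2 in 1, LDHA in 3 and PGK1 in 2. RefSeq promoters of 300 bases (250 before and 50 after the start) were at hand for 37 members, 68 in all, and PFKFB2, PCK1, LDHD and SLC16A1 had no entry. ACGTG on either strand was in 38.2% of the members' promoters and in 21.4% of all 35116 promoters. The median GC content was 67.8% in the members' promoters and 58.7% in all. The E-box CACGTG, which contains ACGTG, was in 17.6% of the members' promoters and 7.26% of all, and GCGTG in 38.2% and 36.5%. A match of letters is a description and shows no binding.

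ALDOC, the aldolase form known from brain, was at 29.6, 5.69, 18.1 and 8.64 CPM in the number 2 libraries, against 9.95, 2.21, 7.36 and 4.504 CPM in the number 1 libraries, with controls at 22.0, 28.8, 6.79 and 14.3 CPM, and number 2 was higher in every pair (log2 fold change 1.28 ± 0.12 SE, adjusted p = 0.000296). ENO2, the neuronal enolase, was at 4.15, 5.32, 3.13 and 5.62 CPM in the number 2 libraries, against 1.35, 2.58, 1.505 and 2.87 CPM in the number 1 libraries, with controls at 0.197, 0.409, 1.87 and 3.33 CPM, a 2.22-fold rise by number (log2 fold change 1.15 ± 0.17 SE, adjusted p = 0.0021). PFKFB4, which also sets fructose 2,6-bisphosphate, was at 18.9, 17.1, 19.9 and 14.6 CPM in the number 2 libraries, against 13.9, 9.90, 12.9 and 9.85 CPM in the number 1 libraries, with controls at 16.0, 18.7, 11.5 and 14.7 CPM (0.59, adjusted p = 0.00414). All 3 were higher in number 2 in each of the 4 pairs. PFKFB3, the isozyme best known as inducible in tumours, went the other way, at 184, 149, 199 and 158 CPM in the number 2 libraries, against 243, 216, 239 and 239 CPM in the number 1 libraries, with controls at 278, 273, 194 and 167 CPM (-0.46, adjusted p = 0.00552). PKLR was higher in number 2 in each pair (log2 fold change 0.98 ± 0.16 SE, adjusted p = 0.00324), while the direction in KO against control was down.

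SLC16A3, which encodes the lactate exporter MCT4, had the largest rise of the 39 members and was at 2.47, 1.22, 1.86 and 3.79 CPM in the number 2 libraries, against 0.673, 0.351, 0.459 and 1.21 CPM in the number 1 libraries, with controls at 2.33, 3.43, 6.37 and 12.8 CPM (log2 fold change 1.81 ± 0.21 SE, adjusted p = 0.00079). LDHD, which oxidises D-lactate in mitochondria, was at 2.04, 5.75, 1.55 and 4.61 CPM in the number 2 libraries, against 0.636, 3.26, 0.239 and 3.02 CPM in the number 1 libraries, with controls at 4.28, 5.39, 1.08 and 2.77 CPM (log2 fold change 1.26 ± 0.28 SE, adjusted p = 0.0111). Both were higher in number 2 in each pair, and the controls of both also spread widely. LDHB, the form of lactate dehydrogenase found in heart, was at 529, 434, 794 and 541 CPM in the number 2 libraries, against 877, 509, 945 and 609 CPM in the number 1 libraries, with controls at 811, 798, 954 and 862 CPM, and was lower in number 2 in each pair (-0.36, adjusted p = 0.0389).

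The phosphoenolpyruvate carboxykinases rose. PCK2, the mitochondrial form, was at 175, 195, 135 and 170.3 CPM in the number 2 libraries, against 56.2, 96.1, 63.4 and 108 CPM in the number 1 libraries, with controls at 61.4, 85.0, 48.0 and 94.8 CPM, a 2.12-fold rise (log2 fold change 1.09 ± 0.12 SE, adjusted p = 0.000777). PCK1, the cytosolic form that starts gluconeogenesis, was at 26.1, 46.8, 49.1 and 32.5 CPM in the number 2 libraries, against 26.8, 18.9, 31.8 and 20.8 CPM in the number 1 libraries, with controls at 78.0, 62.1, 22.2 and 34.2 CPM (0.62, adjusted p = 0.0226), with KO_RES of line 2 the pair that did not follow. Of the kinases of pyruvate dehydrogenase, PDK1 (0.39, adjusted p = 0.0113) and PDK3 (0.29, adjusted p = 0.026) were higher in number 2. PDK3 was at 37.5, 45.7, 35.7 and 34.4 CPM in the number 2 libraries, against 32.0, 39.2, 26.4 and 27.2 CPM in the number 1 libraries, with controls at 26.7, 29.3, 23.6 and 31.6 CPM. MPC2, the partner of MPC1 in the pyruvate carrier, was at 142, 225, 164 and 191 CPM in the number 2 libraries, against 213, 257, 199 and 222 CPM in the number 1 libraries, with controls at 223, 209.8, 188 and 149.9 CPM, and was lower (-0.33, adjusted p = 0.0263), as was PGM2 (-0.36, adjusted p = 0.0268).

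**Figure D5:**
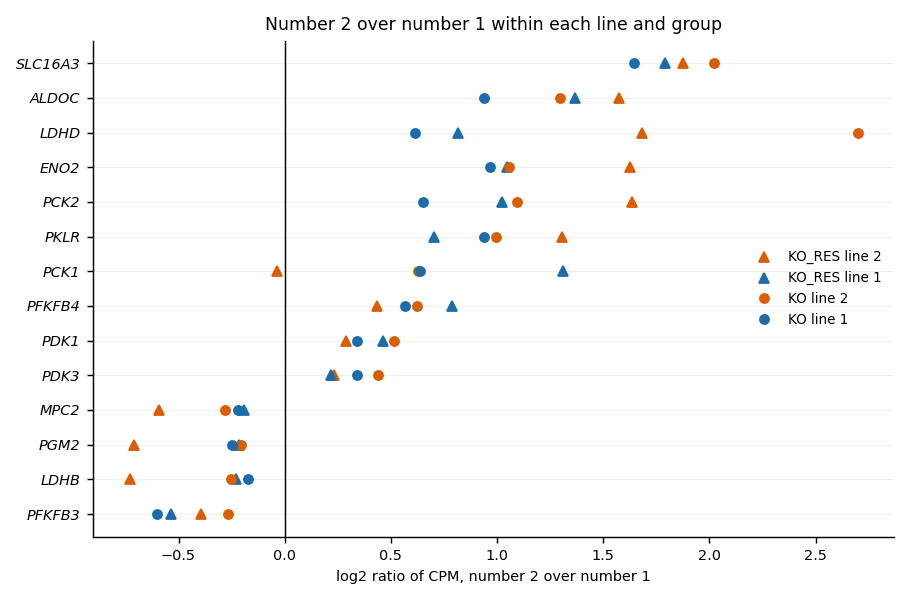
Log2 ratio of CPM, number 2 over number 1, within each of 4 pairs of the same line and title group (x axis) for the 14 members called in that comparison. Points of 9 of the 10 members that rose lie above 0 in all 4 pairs, PCK1 has 1 point just below 0, and the 4 that fell lie below 0.

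LDHA, PGK1, GAPDH, ALDOA, the triose phosphate isomerase TPI1 and PKM were not called by number, with log2 fold changes of -0.12, -0.08, -0.27, -0.16, -0.16 and -0.32. Of 23 hypoxia response genes outside glycolysis, 12 were called in number 2 against number 1, 11 higher and 1 lower, against 20% of all genes tested, with a median log2 fold change of 0.34 beside 0.02 for all genes tested. Among them, named after their values were seen, the carbonic anhydrase CA9 changed by 2.39, adjusted p = 0.00223, NDRG1 by 0.998, adjusted p = 0.000855 and DDIT4 by 0.94, adjusted p = 0.00109. In KO against control the same list had 6 of 23 called, against 6.28% of all genes tested, 1 higher (STC2, 3.03) and 5 lower, among them BNIP3 (-0.93), P4HA1 (-1.09) and ERO1A (-0.45). Controls 1 to 4 were at 6.58, 9.51, 67.2 and 99.95 CPM for STC2 and at 118, 110, 69.6 and 72.6 CPM for BNIP3. They were at 153, 149, 80.8 and 95.2 CPM for P4HA1 and 323, 337, 312 and 329 CPM for ERO1A. Controls 1 and 2 thus stood apart from 3 and 4 for all but ERO1A, and KO and control did not overlap for any of them. Of the glycolysis members, 14 were called by number, and 8 were without KO_RES 1_2, KO_RES 1_1, KO 2_2 or KO 2_1. Each such fit also loses the contrast within that pair, and 7.05% to 8.2% of all genes were called, against 20%. The part of oxygen or culture state in the number difference was not tested.

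Members called by edgeR in at least 1 comparison of the 3-group, 5-group and number models numbered 26, and 14 were tested there and called in none: ALDOA, TPI1, PFKFB1, GAPDH, PGAM1, PGAM2, ENO1, PKM, LDHA, SLC16A1, MPC1, PDK2, G6PC3 and PGM1. The share of all genes called at least once is not given here, so the 26 is a tally and no result about the pathway. Single comparisons of these models called 0% to 20% of all genes. Alternatives called some of these 14. With number as a replicate block, which called 29% of all genes, 3 differed between KO2 and KO1. LDHA (-0.59, adjusted p = 0.0163) and ALDOA (-0.50, adjusted p = 0.024) were lower and PGAM1 (0.52, adjusted p = 0.0386) higher in KO2. DESeq2 called LDHA and ALDOA in KO2 against KO1 (16.6% of all genes), LDHA in KO1 against control (22.9%), and ENO1 and PGAM1 by number (21.1%). By the genotype field ENO1 and PGM1 were called in KO against control (9.81% of all genes). Without controls 1 and 2, MPC1, LDHA and G6PC3 were called in KO1 against control (17.6%) and G6PC3 in KO2 against control (10.6%). G6PC3, the glucose 6-phosphatase of most tissues, was at 23.9, 19.4, 14.3 and 16.4 CPM in KO_RES, at 20.1, 16.1, 16.9 and 16.9 CPM in KO and at 18.1, 18.3, 27.4 and 30.4 CPM in control, with controls 3 and 4 the highest. SLC16A1, which encodes the lactate carrier MCT1, varied little, at 92.1 to 119.6 CPM in KO_RES, 91.6 to 109 CPM in KO and 89.8 to 101 CPM in control. PDK2, PGAM1 and PGM1 had log2 fold changes of -0.17, -0.22 and -0.26 in KO against control. PFKFB1 and PGAM2 averaged under 1 CPM in every group, as did FBP1.

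Counts of processed pseudogenes of the members were at most 1.83% of the counts of the parent gene (PGAM1) in any library. Around the members, 45 of 55 further genes of the pathway were tested in KO against control and 4 were called, all lower, which is 8.89% beside 6.28% of all genes tested: SLC16A4 (-1.99, adjusted p = 0.00518), TKFC (-0.59, adjusted p = 0.0237), SLC37A4, the glucose 6-phosphate transporter (-0.69, adjusted p = 0.0345), and BSG, the partner of MCT1 and MCT4 at the cell surface (-0.58, adjusted p = 0.0353). In KO_RES against KO none of the 45 was called, with 1 at an unadjusted p under 0.05 (2.46% of all genes tested). Of 16 genes of glucose entry 12 were tested and 1 was called (8.33%, beside the same 6.28%), SLC5A2 (-1.83, adjusted p = 0.0497). SLC5A2 was at most 0.467 CPM in any library, with 119 counts in all and 4 libraries at or under the floor of 3 counts. HK2, the hexokinase of many tumours, was at 24.0, 18.5, 7.90 and 4.24 CPM in KO_RES, at 40.6, 27.1, 22.5 and 15.7 CPM in KO and at 11.2, 10.5, 6.79 and 9.59 CPM in control, above control in KO2 (1.83, adjusted p = 0.0027) and in KO1 (1.004, adjusted p = 0.0316).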

How the data were processed

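RNA of 12 libraries was sequenced after a stranded mRNA library kit, per the labels' protocols. The deposited tables hold read counts per gene. Per the submitters' processing notes, the authors used STAR 2.6.0b and GRCh37. Column 4 was used, whose total was 19.8 to 21.1 times that of the other strand, and 4 lines of unassigned reads (23.2% to 31.5% of reads, 7.21% to 11.6% multimapping) were left out. The members and lists were chosen with earlier results of these data known.

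Symbols came from tables of gene names and promoters from RefSeq, whose build is not that of the counts, so no coordinates of counted genes and no levels per length are given. Counts were tested in R 4.3.3 with edgeR 4.0.16 (filterByExpr, TMM, quasi-likelihood test), with Benjamini-Hochberg adjustment over all genes tested and a threshold of 0.05 for a call. The 3-group model covered 19200 genes (biological coefficient of variation 36.2%), a 5-group model (KO and KO_RES by line, and control) 20559 (25.8%), and a model of number over 8 libraries 19766 (12.4%). Levels are CPM with TMM factors. A value of at most 3 counts per library counts as the floor, for counting error only. The 3-group edgeR procedure was run on simulated counts for KO against control only. Those counts held no line or number differences, so they do not test the procedure where such differences are present.

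Numbers pair KO_RES and KO libraries: correlations of their deviations from the group means were 0.778, 0.829, 0.849 and 0.767 for the same line and number, each the highest of its library. Named genes were those called in any comparison plus 10 fixed by name, and up to 4 called genes of each other list. Alternatives were DESeq2 1.42.0, RLE scaling, no filter, unstranded counts, other groupings and blocks, and leaving out each library.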

Additional observations from a re-analysis of the deposited data

Results flagged for a closer look

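Among 114 groups of 4 libraries looked at, 1 held a library far from the rest: PGM1, a phosphoglucomutase, was at 137.66 CPM in KO_RES 1_2, away from the other 3 KO_RES libraries. Chance alone sets a library apart in about 1 in 20 groups.

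The KO lines differed by the direct test of KO2 against KO1 at 7 members. The log2 difference was 6.80 for SLC16A7 and 0.84 for PGK1, both higher in KO2. It was -0.56 for GPI, -1.17 for PFKM, -0.89 for BPGM, -1.42 for ENO3 and -0.77 for PDHA1. All 7 kept their call with number as a replicate block over 8 libraries, and BPGM, ENO3, SLC16A7 and PDHA1 kept it in each of 17 alternatives. What sets the lines apart was not tested.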

How the results depend on the processing

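The share of all genes called stands in parentheses beside each count of members called. For KO against control, 5 (6.28%) became 8 by the genotype field (9.81%), 1 with only libraries whose title and genotype agree (0.36%), 8 when both lines were averaged from the 5-group model (16.1%), 0 without controls 1 and 2 (1.67%), and 2 (0.914%) and 1 (0.348%) with number 1 or number 2 libraries only (chosen after seeing the data). Leaving out 1 library gave 2 to 6 (2.6% to 7.76%). For KO_RES against control, 2 (5.47%) became 7 by DESeq2 (11.1%), 7 by the genotype field (9.76%), 0 with agreeing libraries only (0.32%), 1 in a fit of the groups compared (2.92%), 12 as the mean of both lines (15.4%), 0 without controls 1 and 2 (1.91%), 1 without controls 3 and 4 (7.09%), 0 with number 1 (0.35%) or number 2 (0.427%) only, and 0 to 4 without 1 library (2.39% to 5.87%). For KO_RES against KO, 0 (0%) became 2 by DESeq2 with line and number as a replicate block (2.66%). The edgeR fit with that block gave 0 (0.0405%).

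With no filter on low counts, members called were 20 in KO1 against control (12.7%), 12 in KO2 against control (8.72%), 14 in KO2 against KO1 (9.08%), 2 in KO1_RES against KO1 (1.41%) and 3 for the rescue difference (0.495%). DESeq2 gave 10 in KO2 against control (15.2%) and 11 in KO2 against KO1 (16.6%). Number as a replicate block gave 23 in KO2 against KO1 (29%), 4 in KO1_RES against KO1 (3.31%) and 2 for the rescue difference (0.496%), and changed no other call count. Leaving out 1 library gave 8 to 16 in KO1 against control (5.86% to 19.7%), 2 to 7 in KO2 against control (2.44% to 11%), 4 to 12 in KO2 against KO1 (3.95% to 13.1%), and 8 to 14 for number (7.05% to 18.6%). SLC16A7 reversed as the mean of both lines: -0.88 (adjusted p = 0.00303) in KO against control and -0.67 (adjusted p = 0.0132) in KO_RES against control, since 1 line lies above and 1 below control. Other causes were not tested. The 3 members under 1 CPM in all groups rest on few counts, in total 167 for PFKFB1, 53 for PGAM2 and 12 for FBP1.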

Other observations

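Beyond the members, a few related genes separated the lines, and they are named after their values were seen. PDHX, the E3-binding protein of pyruvate dehydrogenase, was at 59.1, 67.7, 135 and 121 CPM in KO_RES, at 65.5, 71.5, 135 and 125 CPM in KO and at 66.1, 66.8, 66.1 and 62.0 CPM in control, and it was higher in KO1 against control (0.99, adjusted p = 0.000162) and lower in KO2 than in KO1 (-0.92, adjusted p = 0.000912), as was PDHA1. GOT1, the cytosolic aspartate aminotransferase, was at 148, 123, 275 and 231 CPM in KO_RES, at 151, 144, 232 and 224 CPM in KO and at 147, 142, 139.6 and 138 CPM in control (-0.63, adjusted p = 0.00935 in KO2 against KO1). G6PC1, the glucose 6-phosphatase of liver, was at 40.2, 63.1, 19.6 and 4.08 CPM in KO_RES, at 79.4, 74.4, 10.7 and 5.14 CPM in KO and at 219.8, 176, 81.0 and 88.3 CPM in control, and the line 1 libraries were the lowest (-4.17, adjusted p = 0.00325 in KO1 against control).

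The lactate dehydrogenase genes LDHC and LDHAL6A, known from testis, were also tied to line 1. LDHC was at 0.0148, 0, 0.396 and 0.391 CPM in KO_RES, at 0.0136, 0.0184, 0.820 and 0.671 CPM in KO and at 0.0179, 0, 0.186 and 0.0886 CPM in control. LDHAL6A was at 0, 0, 0.311 and 0.215 CPM in KO_RES, at 0.0136, 0, 0.351 and 0.351 CPM in KO and at 0, 0, 0.0338 and 0.0355 CPM in control. For both genes the 4 line 1 libraries were above every other library, at levels under 1 CPM.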
